A study of Mus musculus with 2 samples.

Results

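The clustered histone genes were taken as every gene whose symbol starts with Hist1h, Hist2h, Hist3h or Hist4. These were 69 of the 27998 genes listed, 6 for H1, 19 for H2A, 19 for H2B, 12 for H3 and 13 for H4. They carry 68 symbols, since Hist2h2bb stands under 2 Ensembl identifiers. By symbol 55 belong to the Hist1 group, 11 to Hist2, 2 to Hist3 and 1 to Hist4.

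They were measured in 2 single-cell RNA libraries of wild-type C57BL/6 mouse lung fibroblasts, made with a droplet 3′ kit that primes on poly(A). Whole lung suspensions were plated and the fibroblasts were grown to passage 3 in medium with 10% FBS, with 1% ITS+3 supplement where a lipofibroblast-like state was to be induced. The stimulated library held cells treated for 14 days; the protocol lists 10 µM rosiglitazone, 1 µM SB4315442 and 4 µM rhBMP4, singly or together, without naming those given to this library. The control library held cells from the same lung kept equally long in the same medium with vehicle. There was 1 library a group and so no replicate: no difference between the libraries could be tested against the spread between cultures, and every interval below is a 95% interval for counting error only.

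After filtering, 4703 control and 7468 stimulated cells were left, with 88573140 and 117193148 UMIs (unique molecular identifiers, 1 for each captured RNA molecule) and medians of 19634 and 15379.5 UMIs a cell; 53 barcodes occurred in both libraries. All 10 fibroblast markers were seen in both, with a summed level of 11684 CPM (UMIs of a gene per 1000000 UMIs of its library) among control and 5629 CPM among stimulated cells. The libraries differed in macrophage markers: 11 of 11 reached 1 CPM in the control library, with a sum of 745 CPM, against 2 of 11 and 14.2 CPM in the stimulated library. At least 3 of these markers were found in 572 control and 7 stimulated cells. Smooth muscle and pericyte markers summed to 3336 CPM in control and 1213 CPM in stimulated cells, where the highest marker gave 3217 and 1097 CPM. Mesothelial markers summed to 25.8 and 24.2 CPM. Epithelial, endothelial and lymphoid marker lists summed to at most 3.70 CPM in either library.

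Histones package DNA into nucleosomes: H3 and H4 form the inner tetramer, H2A and H2B add as dimers, and H1 binds the linker DNA between nucleosomes. The genes of the clusters are known for being transcribed mostly in S phase, when new DNA has to be packaged, and their mRNAs normally end just behind a conserved stem-loop instead of a poly(A) tail. Some members, Hist1h1c and Hist1h2bc among them, are also known as polyadenylated RNAs in cells that have left the cycle. A poly(A)-primed library therefore counts the copies that carry a tail or an internal run of A, and the values below are levels of captured RNA, not of all histone mRNA. UMIs count 3′ ends and were not divided by gene length.

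The ends of the annotated transcripts are shown first because they bear on what can be captured and on the copy to which a read can be assigned. Of 67 members with a transcript in GENCODE M21, 42 held the histone stem-loop, found by its conserved 16-base consensus on the transcript's strand. In 21 members the annotated transcript ended within 100 bases of it and in 21 it ran on for 100 bases or more. The sites below are read from GENCODE M21 transcripts on build GRCm38, 30 bases each within the 3′ UTR, with the stem-loop in capitals.
Hist1h2ap: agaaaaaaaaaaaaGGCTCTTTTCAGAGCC
Hist1h2ao: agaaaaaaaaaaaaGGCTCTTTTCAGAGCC
Hist2h2aa1: cgagctcctaaaaaGGCTCTTTTCAGAGCC
Hist1h4i: caatgctacttaaaGGCCCTTTTTAGGGCC
Hist1h1c: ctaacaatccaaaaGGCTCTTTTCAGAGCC
Hist3h2a: ttacagacaccaaaGGCTCTTTTCAGAGCC

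The site of Hist1h2ap lies at chr13:21833029-21833058 on the minus strand and its transcript ends 3 bases behind it. The Hist1h2ao site (chr13:21810884-21810913, plus strand) is followed by 31 bases and the Hist2h2aa1 site (chr3:96246018-96246047, plus strand) by 35. The other transcripts run on, by 330 bases for Hist1h4i (chr13:22040966-22040995, minus strand), 840 for Hist1h1c (chr13:23739498-23739527, plus strand) and 1643 for Hist3h2a (chr11:58955158-58955187, plus strand). The build behind the deposited counts is not given in the sources used here. Hist1h2ap and Hist1h2ao had the same 30 bases, with a run of 12 A directly before the loop. They were the only 2 of the 67 members with a run of at least 10 A in the last 100 bases. Of all 27645 listed genes with a transcript, 5.05% had one. Hist1h2ac held a run of 15 A and Hist1h2be a run of 11 A, both farther from the end. With the same site as Hist1h2ap, Hist1h2ao was counted at only 9 control and 7 stimulated UMIs. The part of the run in capture was not tested. Hist1h2bc, the most abundant member of the control library, had no stem-loop in its transcript: GENCODE lists it only as a spliced mRNA of 2 exons (chr13:23684199-23692908, plus strand), whereas the other genes shown have 1 exon.

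Copies of a class share sequence, which limits what a single gene's count means. The last 400 bases of each transcript were read in windows of 90 bases every 30 bases and matched to all listed genes with at most 2 mismatches. Of the 67 members, 45 shared at least 1 window with another gene, 40 shared at least 50% and 12 shared all, while 22 shared under 10%. Every window of Hist1h2ap matched another gene, 19 genes in all, 16 of them H2A members of the clusters and the others H2afj, H2afx and Trim17. Every window of Hist2h2aa1 also matched, with 17 genes. Every window of Hist1h1e matched Hist1h2be, a gene of another class. The end of Hist1h1e (chr13:23620629-23622558, minus strand) lies within the annotated span of Hist1h2be (chr13:23583670-23621124, minus strand). This match is thus one of overlapping annotated genes and need not be a copied sequence. Hist1h2bj shared 75% of its windows and Hist1h4h 58.3%. Hist1h2bc, Hist1h1c, Hist3h2a, Hist1h4i, Hist2h3c1 and Hist2h3c2 shared no window at their own ends. Windows from the ends of other members did match inside the transcripts of all of these but Hist1h1c: those of 11 members matched Hist1h2bc, those of 11, Hist1h2ap among them, matched Hist3h2a, and those of 7 matched each of Hist1h4i, Hist2h3c1 and Hist2h3c2. Reads from those copies could therefore be counted under these genes, and Hist1h1c is the only one of the 6 with no match to another member either way. The counts of Hist1h2ap, Hist2h2aa1, Hist1h2bj and Hist1h4h are uncertain as to the copy from their own ends on. Those of Hist1h1e are uncertain as to the overlapping Hist1h2be.

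The summed level of all members was close in the libraries, at 578 CPM (51158 UMIs) in control and 611 CPM (71608 UMIs) in stimulated cells, 1.06-fold higher (interval 1.05 to 1.07). The classes behind these sums went in opposite directions. H2A was 55.8 CPM in control cells against 414 CPM in stimulated cells, 7.42-fold higher (7.20 to 7.64). H2B was 385 and 130 CPM, 2.95-fold lower (2.90 to 3.01), H1 was 92.8 and 37.1 CPM, 2.50-fold lower (2.41 to 2.60), and H3 was 14.9 and 4.34 CPM, 3.42-fold lower (3.09 to 3.80). H4 was 29.3 and 25.5 CPM, 1.15-fold lower (1.09 to 1.21).

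A single gene made up most of most sums. Hist1h2bc gave 65.8% of all clustered histone UMIs in the control library and 98.8% of those of H2B, and 97.2% of H2B in the stimulated library. Hist1h2ap gave 62.8% of all of them in the stimulated library. Within H2A it gave 46.8% of UMIs in control and 92.7% in stimulated cells. Without Hist1h2ap the H2A fold was 1.02, without Hist1h2bc that of all members was 2.45, and without Hist1h1c the remaining H1 genes were 1.42-fold higher in the stimulated library instead of lower. Restricted to the 22 members with under 10% shared windows, the stimulated over control ratio was 0.375 for all members. For the 3 H2A members among them it was 0.606. Those 3 are in effect Hist3h2a, with 2211 control and 1720 stimulated UMIs, since Hist1h2aa had 0. Hist1h2ac, with 23 and 70 UMIs, was 2.30-fold higher (1.42 to 3.86). The higher H2A sum is thus mostly a statement about Hist1h2ap and Hist2h2aa1, whose reads cannot be assigned to 1 copy with certainty.

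**Figure D1:**
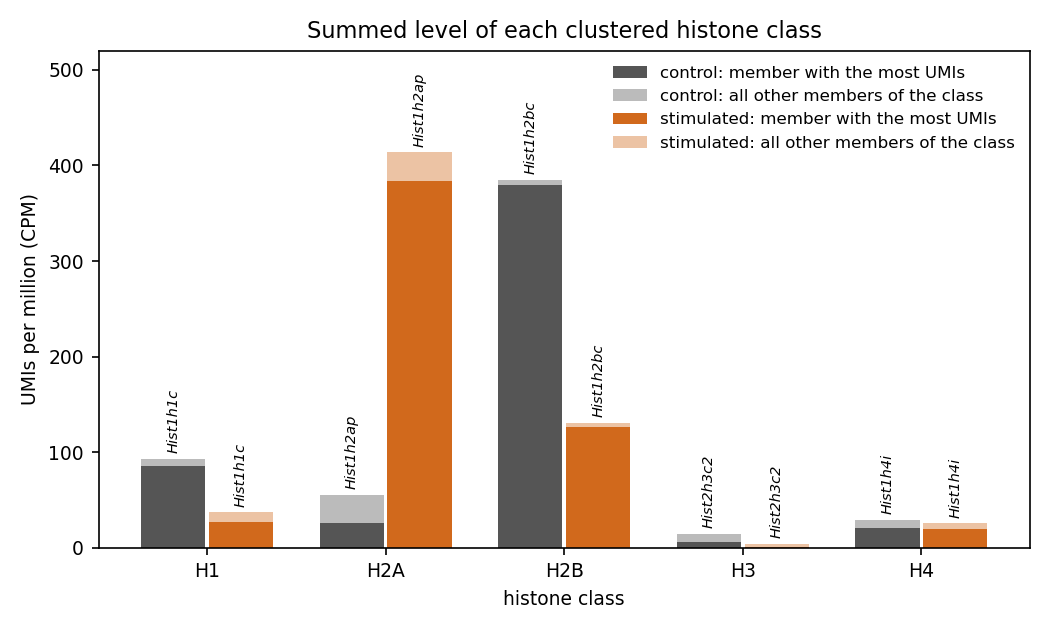
Summed CPM of each histone class (y axis) in the control (grey) and the stimulated library (orange), 1 library each; the dark part is the gene named above the bar, which has the most UMIs of its class, and the pale part is all other members. H2A is the class that is higher in the stimulated library, at 414 against 55.8 CPM, and H2B the largest class of the control library at 385 CPM.

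Of the 69 members, 4 had no UMI in either library (Hist1h2aa, Hist1h2ba, Hist1h2bq and Hist1h2br, named because none was counted), 15 reached a mean of 1 CPM over the libraries and 6 reached 5 CPM. The filter at 5 CPM passes genes through the library in which they are high, so what follows describes these 6 and not the family. With a difference of at least 1.5-fold, 2 of the 6 were higher in the stimulated library, against 7.75% of 8787 genes with the same mean, and 3 were lower, against 12.0%. At a mean of 1 CPM, 3 of 15 were higher (9.81% of 11700 genes) and 8 were lower (14.8%). The median log2 difference was -0.39 over the 6 members and -0.06 over all 8787 genes.

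Among the H2A genes, Hist1h2ap was at 26.1 CPM in control cells (2311 UMIs) against 383 CPM in stimulated cells (44940 UMIs), 14.7-fold higher (14.1 to 15.3). It held up to 36 UMIs in a single control cell and up to 183 in a stimulated cell. Hist2h2aa1, another gene with a fully shared 3′ end, was 1.04 and 10.8 CPM, 10.4-fold higher (8.43 to 13.0). The Hist3h2a gene, whose own end matched no other gene, went the other way, at 25 CPM in the control library against 14.7 CPM, 1.70-fold lower (1.60 to 1.81). H2afj, outside the clusters and among the genes that match the end of Hist1h2ap, was 396 and 489 CPM, 1.24-fold higher.

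Among the H2B genes, Hist1h2bc was 380 CPM in control cells (33663 UMIs) against 127 CPM in stimulated cells (14847 UMIs), 3.00-fold lower (2.94 to 3.06). Hist1h2be was 1.39 and 0.734 CPM, and Hist1h2bj was 1.06 and 1.04 CPM. All other H2B members lay under 1 CPM in both libraries.

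Among the linker histones, Hist1h1c was 85.9 and 27.3 CPM, 3.15-fold lower in the stimulated library (3.02 to 3.28). Hist1h1e was 4.05 and 5.38 CPM, 1.33-fold higher (1.16 to 1.51), and Hist1h1b was 2.16 and 3.75 CPM, 1.74-fold higher (1.46 to 2.07). The abundant linker histone and the 2 scarcer ones thus differed in direction.

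The core histones H3 and H4 were scarce. Hist2h3c2 was 6.16 CPM in control cells against 0.870 CPM in stimulated cells, 7.08-fold lower (5.72 to 8.84), and Hist2h3c1, of the same cluster, was 4.69 and 0.657 CPM, 7.13-fold lower (5.58 to 9.22). Hist1h3d was 1.11 and 0.384 CPM, 2.88-fold lower (2.0 to 4.2). Hist1h4i, the most abundant H4 gene, was 20.3 CPM and 20.1 CPM, a fold of 0.992 (0.932 to 1.06). Hist1h4h was 4.19 and 2.03 CPM, 2.06-fold lower (1.75 to 2.44), and Hist4h4 was 1.29 and 0.785 CPM.

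**Figure D2:**
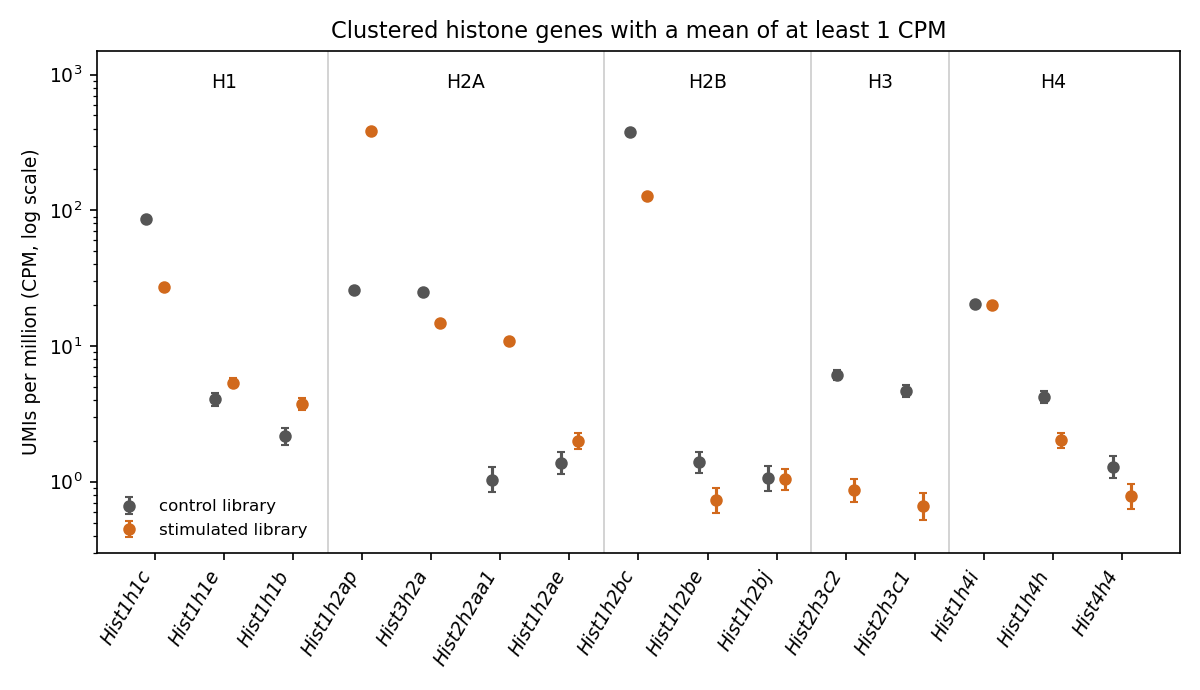
CPM (y axis, log scale) of the 15 members with a mean of at least 1 CPM, by class, in the control (grey) and the stimulated library (orange); bars are exact Poisson 95% intervals for counting error and are smaller than the points for the abundant genes. Hist1h2ap and Hist2h2aa1 stand far higher in the stimulated library, Hist1h2bc, Hist1h1c, Hist2h3c1 and Hist2h3c2 lower, and the points of Hist1h4i lie side by side at 20.3 and 20.1 CPM.

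Macrophage markers differed between the libraries along with these genes. Without the cells that carry at least 3 of them, the fold was 14.5 for Hist1h2ap (13.9 to 15.2) and 11.7 for Hist2h2aa1, and the stimulated over control ratio was 0.329 for Hist1h2bc, 0.314 for Hist1h1c and 0.335 for H2B. These values are close to those over all cells. Fibroblast markers and smooth muscle and pericyte markers also differed in sum between the libraries, and their part in the result was not tested.

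To ask how the members go with DNA replication, each cell was thinned to 5000 UMIs and called by its UMIs of Mcm5 and Gins2, parts of the replicative helicase, and Pcna, the sliding clamp of the DNA polymerases. Thinning left out 626 control and 760 stimulated cells with fewer UMIs. A UMI of these genes was found in 812 of 4077 control cells, 19.9% (18.7% to 21.2%), and in 1746 of 6708 stimulated cells, 26.0% (25% to 27.1%). Most of them carried only 1, 631 control and 1339 stimulated cells, so the class is a range and not a cell type; without thinning the shares were 43.4% and 51.8%. Genes of other cell types gave UMIs in few thinned cells: Epcam in 0 of 4077 control cells, which at 3 counts allows a share of cells with a UMI of up to 0.0736%, Cdh5 in 0.172% and 0.119%, and Ptprc, a leukocyte gene, in 1.03% and 0.0149%.

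Hist1h2ap, Hist1h1b and Hist1h1e were higher in cells with S phase UMIs in both libraries, and Hist1h2bc was lower. In the control library Hist1h2ap was 68.7 CPM with and 12.3 CPM without S phase UMIs, 5.58-fold higher (4.64 to 6.73). In the stimulated library it was 687 and 224 CPM, 3.06-fold higher (2.95 to 3.18). Stimulated cells without any S phase UMI thus held more of it than control cells with them. Hist1h1b was 6.16 and 1.04 CPM in the control library (5.91-fold, 3.07 to 11.7) and 7.10 and 2.10 CPM in the stimulated library (3.39-fold, 2.31 to 5.0). Hist1h1e was 6.65 and 2.51 CPM (2.65-fold, 1.57 to 4.41), and 8.59 and 3.79 CPM (2.27-fold, 1.65 to 3.10). Hist1h1a and Hist1h1d held between 2 and 9 UMIs in each kind of cell, and the intervals of their ratios span 1; Hist1h1t held 0. All H1 genes without Hist1h1c summed to 13.8 and 4.41 CPM in the control library and 16.7 and 6.29 CPM in the stimulated library.

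Hist1h2bc was 310 CPM with and 424 CPM without S phase UMIs in the control library, 1.37-fold lower (1.29 to 1.45), and 111 and 142 CPM in the stimulated library, 1.28-fold lower (1.19 to 1.37). Hist3h2a was lower by 1.33-fold and 1.38-fold. Hist2h2aa1 was 8.59 and 12.5 CPM in the stimulated library, a ratio of 0.685 (0.525 to 0.884), in the direction opposite to Hist1h2ap. Its control ratio was 0.670 (0.126 to 2.30), from 3 UMIs with and 18 without S phase UMIs. In the control library Hist2h3c2 was 4.19 and 7.17 CPM, 1.71-fold lower, and Hist2h3c1 was 3.69 and 6.49 CPM, 1.76-fold lower; the stimulated library held 25 and 17 UMIs of them in cells without S phase UMIs, and the intervals of their ratios span 1. Hist1h1c was 77.1 and 97.6 CPM in the control library, a ratio of 0.790 (0.698 to 0.892), and 30.4 and 28.4 CPM in the stimulated library, a ratio of 1.07 whose interval, 0.924 to 1.23, spans 1. Hist1h3c, an H3 gene under 1 CPM in both libraries, was higher with S phase UMIs. Its ratio was 3.52 (1.09 to 11.1) among control cells, from 7 UMIs with and 8 without S phase UMIs. Among stimulated cells it was 3.25 (1.03 to 10.5), from 8 and 7 UMIs. The ratio for Hist1h4i was 1.01 (0.781 to 1.3) among control and 1.33 (1.13 to 1.56) among stimulated cells.

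Of 7 members with a mean of 5 CPM over both kinds of cell in the control library, 1 was at least 1.5-fold higher with S phase UMIs (Hist1h2ap; 7.25% of 8863 genes were) and 2 were lower (Hist2h3c1 and Hist2h3c2; 1.40% were). Of 7 in the stimulated library, 2 were higher (Hist1h2ap and Hist1h1e; 3.64% of 8711 genes) and 0 were lower (0.677%).

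**Figure D3:**
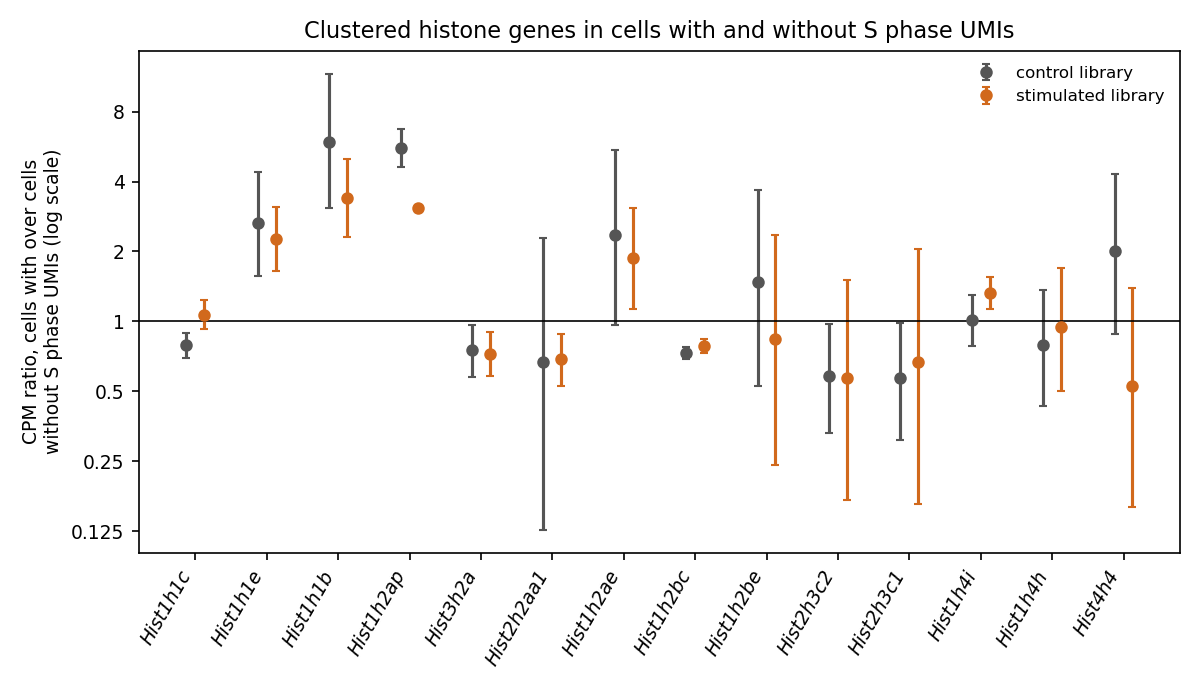
Ratio of CPM in cells with at least 1 UMI of Mcm5, Pcna or Gins2 to cells with none (y axis, log scale; line at 1) for the 14 members with a mean of at least 1 CPM and at least 20 thinned UMIs in each library, in the control (grey) and the stimulated library (orange); bars are exact 95% counting intervals. Hist1h2ap, Hist1h1b and Hist1h1e lie above 1 in both libraries, Hist1h2bc and Hist3h2a below 1 in both, and the intervals of most scarce members span 1.

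By class, H2A had the largest ratio of cells with to cells without S phase UMIs in both libraries, 93.3 against 40.6 CPM in the control library (2.30-fold, 2.02 to 2.61) and 716 against 258 CPM in the stimulated library (2.78-fold, 2.68 to 2.88). Without Hist1h2ap the ratio was 0.870 among control and 0.869 among stimulated cells, and over the 3 H2A members with unshared ends 0.776 and 0.785. Most H2A UMIs besides Hist1h2ap were of Hist3h2a and Hist2h2aa1, both lower with S phase UMIs among stimulated cells. Hist2h2ac, Hist1h2ac and Hist1h2ae, all scarcer, were higher there, by 3.69-fold, 3.91-fold and 1.87-fold, with intervals that leave out 1. They held 13 and 10, 11 and 8, and 29 and 44 UMIs with and without S phase UMIs. Their control ratios were 2.41, 3.02 and 2.37, with intervals that span 1. H1 was 90.9 and 102 CPM among control and 47.1 and 34.7 CPM among stimulated cells. H2B was 315 and 428 CPM among control and 115 and 146 CPM among stimulated cells, H3 was 12.8 and 17.0 CPM and then 4.24 and 3.91 CPM, and H4 was 29.8 and 29.3 CPM and then 31.2 and 24.9 CPM. All members together were 542 and 617 CPM in the control library, a ratio of 0.879 (0.839 to 0.921), and 914 and 467 CPM in the stimulated library, a ratio of 1.96 (1.90 to 2.01). Without Hist1h2ap these sums were 473 and 604 CPM, and 227 and 243 CPM, so the excess of the summed level in the stimulated library rests on 1 gene.

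Hist1h2ap was higher the more S phase UMIs a cell held. In control cells with 0, 1, 2 and at least 3 of them it was 12.3, 48.2, 138 and 149 CPM, the last from 43 cells. In stimulated cells it was 224, 593, 907 and 1296 CPM, the last from 92 cells. Hist1h2bc was 424, 326, 251 and 274 CPM among control and 142, 116, 90.2 and 117 CPM among stimulated cells. The sum of the H1 genes without Hist1h1c was 4.41, 10.5, 21.7 and 37.2 CPM among control and 6.29, 15.1, 19.1 and 32.6 CPM among stimulated cells.

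Cells were also divided by UMIs of Cdc20, Ube2c, Cenpf and Plk1, genes of the G2 and M phases. With neither S phase nor G2 and M phase UMIs, Hist1h2ap was 6.56 CPM in 2440 control cells and 133 CPM in 3014 stimulated cells. With G2 and M phase UMIs alone it was 29.3 and 366 CPM, with S phase UMIs alone 35.9 and 485 CPM, and with both 96.6 and 840 CPM. Hist1h2bc ran in the reverse order at the ends, with 455 and 160 CPM in cells with neither and 252 and 91.1 CPM in cells with both. Over a longer list of 24 S phase genes, Hist1h2ap was 5.01 CPM in control cells with none of their UMIs and 163 CPM in those with at least 6. In the stimulated library it was 52.9 and 1345 CPM.

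**Figure D4:**
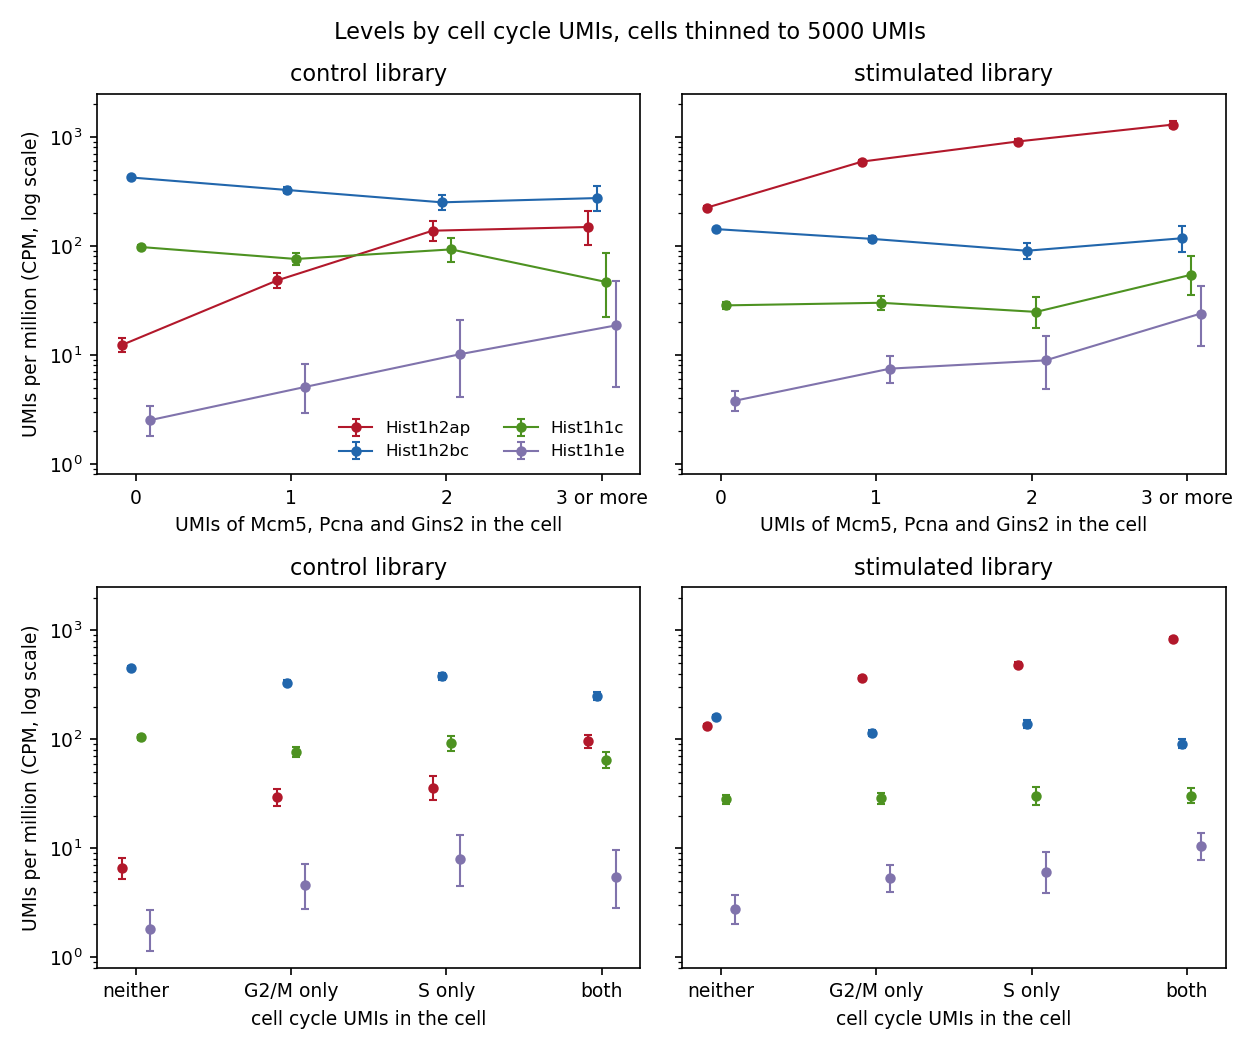
CPM (y axis, log scale) of Hist1h2ap, Hist1h2bc, Hist1h1c and Hist1h1e in thinned cells of the control (left) and the stimulated library (right), by the number of S phase UMIs in the cell (top) and by the presence of S phase and of G2 and M phase UMIs (bottom); bars are exact Poisson 95% counting intervals. Hist1h2ap goes from 12.3 to 149 CPM on the left and from 224 to 1296 CPM on the right, while Hist1h2bc ends lower than it starts in both.

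Hist1h2ap, Hist1h2bc and Hist1h1c differed between the libraries in the same direction with and without S phase UMIs. Hist1h2ap was 18.2-fold higher (15.8 to 21.1) in stimulated than in control cells without S phase UMIs and 10.0-fold higher (8.86 to 11.3) in those with them. In cells with neither S phase nor G2 and M phase UMIs the fold was 20.2 (16.2 to 25.6). In the 997 control and 855 stimulated cells without a UMI of any of 43 cycle genes it was 7.46 (4.31 to 13.9), from 3.01 and 22.5 CPM. Hist1h2bc was 2.98-fold lower without and 2.79-fold lower with S phase UMIs, and Hist1h1c 3.43-fold and 2.54-fold lower. Hist2h2aa1 was 11.4-fold and 11.6-fold higher, the second from 3 control UMIs (3.83 to 57.6). All members together were 1.32-fold lower in stimulated cells without and 1.69-fold higher in stimulated cells with S phase UMIs.

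Hist1h2ap was spread unevenly over cells. At 5000 UMIs a cell it was seen in 7.16% of control (6.39% to 8.0%) and 31.5% of stimulated cells (30.4% to 32.6%); without thinning the shares were 14.0% and 48.1%. At least 5 UMIs were held by 7 control and 872 stimulated cells. The 5% of cells with the most of it held 81.5% of its control UMIs and 47.2% of its stimulated UMIs. Of the 872 stimulated cells, 51.5% carried an S phase UMI, against 19.2% of the 4596 stimulated cells with none of it. Control cells without S phase UMIs but with at least 3 macrophage markers had a Hist1h2ap UMI in 4.44% of 428 cells. The share was 4.36% of 2796 cells with fewer than 3 macrophage and fewer than 3 mesothelial markers, called unmarked here. Unmarked cells need not be free of these markers. Median UMIs before thinning were 22061.5 and 20296.5. Markers were called on all UMIs of a cell, and the marked cells held Hist1h2bc at 372 CPM, against 432 CPM in the others. Whether they are free of fibroblasts, and so a background, was not tested. The share in the unmarked control cells was no higher than in macrophage-marked cells and is not read as expression on its own. Over all control cells without S phase UMIs the level was not even, at 6.56 CPM without and 29.3 CPM with G2 and M phase UMIs. The part of free RNA in the 12.3 CPM of these cells was not tested. Among unmarked stimulated cells without S phase UMIs the share was 25.2%. In the stimulated library 5 macrophage-marked cells were too few for such a comparison.

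Hist1h2bc was the most widely seen member, in 71.5% of control and 39.2% of stimulated cells. Hist1h1c was seen in 30.6% and 12.3%, and Hist2h2aa1 in 0.515% and 5.31%. A UMI of any clustered histone gene was seen in 81.4% of control cells with and 85.2% of control cells without S phase UMIs. In the stimulated library the shares were 78.4% and 71.1%. Without thinning the order in the control library was the reverse, with 97.8% of cells with and 92.7% of cells without S phase UMIs.

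Grouped by the annotated end, 21 members had a transcript that stops within 100 bases of the stem-loop. They summed to 36.2 CPM among control and 401 CPM among stimulated cells, 11.1-fold higher, and 1.70-fold higher without Hist1h2ap (10.1 and 17.1 CPM). Of the UMIs left without Hist1h2ap, Hist2h2aa1 held 92 of 891 in control and 1269 of 2006 in stimulated cells. The 1.70-fold is thus not a trait of the short-ended members as a group. The 21 whose transcript runs on were 156 and 76.8 CPM, 2.03-fold lower. The 25 without a stem-loop were 386 and 133 CPM, and 5.55 and 6.71 CPM for the 24 besides Hist1h2bc. In cells with against cells without S phase UMIs, these 24 had a ratio of 2.60 among control and 2.07 among stimulated cells. The 20 short-ended members without Hist1h2ap had 1.02 and 0.934. Hist1h1b alone held 191 of 492 control and 439 of 786 stimulated UMIs of the 24. Several of their annotated transcripts are short, such as 381 bases for Hist1h2bl and 312 for Hist1h4k. A stem-loop beyond the annotated end would not be found, so the 24 are not shown to lack one. The limit of 100 bases was set after the values had been seen.

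Histone genes outside the clusters are mostly transcribed through the whole cycle and encode replacement forms. Of 11 of them, 0 were at least 1.5-fold higher in the stimulated library, against 7.75% of all genes with the same mean, and 0 were lower, against 12.0%; for a list of this length a count of 0 is near those shares. Their median log2 difference was 0.06. H2afz, an H2A variant found at promoters, was 694 and 948 CPM, more than the sum of all clustered members in each library, and H3f3b, which encodes the replication-independent H3 form, was 821 and 745 CPM. In cells with S phase UMIs, 5 of the 11 were at least 1.5-fold higher among control and 1 among stimulated cells (7.25% and 3.64% of all genes were), with H2afx, the variant phosphorylated at DNA breaks, higher by 2.16-fold and 1.39-fold.

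Of the genes that supply histones, from the transcriptional coactivator Npat and the stem-loop binding protein Slbp to the chaperones, 14 of 16 reached 5 CPM. Of these, 2 were at least 1.5-fold higher in the stimulated library, Chaf1a, the large subunit of the chromatin assembly factor (12.1 and 19.9 CPM, 1.65-fold), and Hirip3 (5.83 and 11.5 CPM, 1.97-fold), and 0 were lower (7.75% and 12.0% of all genes). Slbp was 32.5 and 36.2 CPM and Npat 7.11 and 8.42 CPM. In cells with S phase UMIs, 9 of the 14 were at least 1.5-fold higher among control and 7 among stimulated cells, against 7.25% and 3.64% of all genes. Asf1b, a chaperone of H3 and H4, was higher by 3.71-fold and 2.14-fold, and Slbp by 1.74-fold and 1.58-fold. Of 20 genes of the longer S phase list with 5 CPM, Slbp among them, 8 were higher in the stimulated library and 0 lower, with a median log2 difference of 0.53, and of 16 genes of the G2 and M phases 8 and 0, with a median of 0.59, where 7.75% of all genes were higher and 12.0% lower. All clustered members together were 617 CPM in control and 467 CPM in stimulated cells without S phase UMIs, and 542 and 914 CPM with them. Without Hist1h2ap, left out with its values known, they were 2.49-fold lower in stimulated cells without S phase UMIs and 2.09-fold lower with them. Most of that sum is Hist1h2bc and Hist1h1c: without these as well, a set chosen after the values were seen, the other members were 83.0 CPM in control and 71.8 CPM in stimulated cells without S phase UMIs, 1.16-fold lower (1.08 to 1.24), and 86.0 and 85.2 CPM in those with them, a ratio of 0.991 (0.872 to 1.13).

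Promoters of 63 of the 69 members were found in RefSeq (GRCm38.p6; 250 bases before to 50 after the start), Hist1h2bc not among them. On either strand, the octamer ATTTGCAT was in 14, 7 of 18 H2A and 7 of 17 H2B promoters, against 1.74% of all 32851. CCAAT was in 54 of the 63, in every H1, H2A, H2B and H3 promoter but in 3 of 12 of H4, against 37.4% of all. The AAACACA element of H1 promoters was in 5 of 6 H1 promoters, in 2 of 18 of H2A and 2 of 17 of H2B, and in 7.18% of all. TATAAA was in 35 of the 63 and in 13.6% of all. Matches of TATAAA and AAACACA, and of CCAAT and the octamer, can overlap at their ends and were counted separately. The promoters are also not all separate. Both Hist2h2bb identifiers have the same promoter, which holds the octamer and is counted for each. The windows of divergent H2A and H2B genes overlap, as for Hist1h2ae and Hist1h2bg, so 1 match can count under both classes. The sequences are 115 bases, from 150 to 36 before the RefSeq start, of the promoters of the most abundant H2A and H1 genes of both libraries, at chr13:21833511-21833625 on the minus strand for Hist1h2ap (H2ac24 in RefSeq) and chr13:23738657-23738771 on the plus strand for Hist1h1c (H1f2), with CCAAT and AAACACA in capitals.
Hist1h2ap: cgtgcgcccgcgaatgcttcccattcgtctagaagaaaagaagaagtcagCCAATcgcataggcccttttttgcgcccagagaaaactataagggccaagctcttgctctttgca
Hist1h1c: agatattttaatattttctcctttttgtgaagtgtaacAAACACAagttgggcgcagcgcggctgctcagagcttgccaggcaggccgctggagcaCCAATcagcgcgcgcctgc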

How the data were processed

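The authors deposited UMI counts per gene and barcode for each library, not normalized. Cell Ranger 3.0.2 wrote the matrices, per the file headers. Versions 1.3.1 of Cell Ranger and 3.0.0 of Seurat are named in the submitters' processing notes. The genome build, the annotation and the treatment of reads from near-identical copies are not given in the sources used. Groups come from the sample titles.

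Cells needed 500 genes or more and no more than 20% mitochondrial UMIs. Doublets were not removed; an alternative leaves out the 5% of cells with the most UMIs. Counts were summed over kept cells and given as CPM. Folds carry exact conditional Poisson 95% intervals and shares exact Clopper-Pearson intervals, with 3 counts as the limit for a count of 0 (scipy 1.17.1 in Python 3.11.15), for counting error only. With 1 library a group there is no test and no p-value; genes were counted as higher or lower from a 1.5-fold difference at a mean of 5 CPM. Cell cycle classes used cells thinned at random to 5000 UMIs. Simulated counts for 8763 genes were drawn as Poisson counts, the form that the interval assumes. In them the interval held the true fold for 94.5% of 200 changed genes and 95.1% of the others, in the comparison of the libraries. Coverage near 95% was set by that choice, and UMIs clumped within cells were not simulated.

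The members and lists were chosen with earlier results of these data known. Named were the 3 members of each class with the highest mean, the 5 largest folds and ratios each way at a mean of 5 CPM, and any member with 0 UMIs in 1 library and at least 10 in the other, of which there was none. The plots add Hist1h2ae, which reached 1 CPM. Some scarcer members are named besides, where their own ratio or a class sum called for it. Sequences come from GENCODE M21 (GRCm38) and RefSeq (GRCm38.p6).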

Additional observations from a re-analysis of the deposited data

Results flagged for a closer look

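All members together were lower in cells with than in cells without S phase UMIs in the control library, a ratio of 0.879, and higher in the stimulated library, a ratio of 1.96. For H1 the ratios were 0.891 and 1.36. Both were picked out because their directions are opposite in the libraries while each counting interval leaves out 1. For cells with at least 2 S phase UMIs the control ratios were 0.948 for all members (0.867 to 1.03) and 1.05 for H1 (0.847 to 1.29), and their intervals span 1. With 1 library a group the differences between the libraries were not tested.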

How the results depend on the processing

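No paired analysis was possible because each group has 1 library. Besides this, the limits are the shared 3′ ends, doublets that remain, S phase classes that mostly rest on 1 UMI, and priming on poly(A). Among the alternative values of the class sums, shares and counts, 75 were called the same as the reported one and 85 moved. For sums and shares, the same means within the counting interval of the reported value. Counts of members have no interval and were the same if within 1.5-fold. Of ratios of at least 1.5-fold, 6 turned direction, 1 of them only to 0.991 with an interval that spans 1. So did 1 smaller ratio, that of all members (1.06 to 0.375). The order of the control shares with a histone UMI turned without thinning. The causes were not tested.

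Stimulated against control, all members gave 1.04 without cells of at least 3 macrophage markers, 1.02 without the 5% of cells with the most UMIs and 1.08 without mitochondrial and ribosomal protein genes (H2B then 0.347). With only members under 10% shared windows the ratios were 0.375 for all (below 1 instead of above), 0.357 for H1, 0.606 for H2A (reversed), 0.160 for H3 and 0.949 for H4. Without the member with the most UMIs they were 2.45 for all, 1.42 for H1 (reversed), 1.02 for H2A, 0.779 for H2B, 0.399 for H3 and 0.597 for H4. With no minimum beyond 1 UMI, 15 members were higher and 24 lower, and at 1 CPM 8 were lower.

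The share of cells with S phase UMIs was 43.4% and 51.8% (control, then stimulated) without thinning, 11.2% and 15.6% at 2500 UMIs, 32.2% and 42.7% at 10000, 4.44% and 6.07% for at least 2 UMIs, 16.1% and 22.1% without Pcna, and 28.7% in the stimulated library by the longer list. Shares of cells with a histone UMI, with and without S phase UMIs, were 97.8% and 92.7% in the control and 94.7% and 85.0% in the stimulated library without thinning, 66.0% and 67.8%, and 64.3% and 52.7% at 2500, and 94.2% and 96.1%, and 90.2% and 85.9% at 10000.

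With against without S phase UMIs, control: all members 0.833 without thinning, 0.948 for at least 2 UMIs, 0.797 by the longer list and 0.764 with unshared ends; H2A 4.11 for at least 2 UMIs, 3.22 by the longer list and 0.776 with unshared ends (reversed); H2B 0.617 and 0.598 for those first settings. Stimulated: all members 2.24 without thinning, 2.04 at 10000, 2.57 for at least 2 UMIs, 1.79 without Pcna, 3.02 by the longer list and 0.899 with unshared ends (reversed). H2A was 4.62, 3.32, 3.93, 2.41, 6.07 and 0.785 (reversed) in that order. H2B was 0.685 without thinning, 0.713 at 10000, 0.692 for at least 2 UMIs and 0.613 by the longer list. Members higher were 3 (at least 2 UMIs) and 2 (longer list) in the control and 1 without thinning in the stimulated library. Members lower were 1 without thinning, at 10000 and for at least 2 UMIs and 4 by the longer list in the control, and 1 at 10000, 2 and 3 in the stimulated library.

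Stimulated against control within cells with S phase UMIs, all members gave 1.82 at 2500, 1.52 at 10000, 2.05 for at least 2 UMIs and 2.23 by the longer list, H2A 6.07 for at least 2 UMIs, and H2B 0.331 and 0.333 at 2500 and 10000. Within cells without them all members gave 0.834, 0.669 and 0.589 (2500, 10000, longer list), H2A 4.99 and 4.33 (10000, longer list) and H2B 0.357 at 10000. Without Hist1h2ap, Hist1h2bc and Hist1h1c, chosen after seeing the data, all members gave 0.991 with and 0.865 without S phase UMIs. The interval of the 0.991, 0.872 to 1.13, spans 1.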
